A study of Mus musculus with 17 samples.

Results

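The heat shock and chaperone genes described here are the 69 genes, of 12393 genes on the array, whose symbol began with Hsp (families a, b, d, e, h and the numbered ones), Dnaja, Dnajb or Dnajc, or was 1 of the Cct subunits, *Tcp1*, *Hsf1* or *Hsf2*, with *Hspa5* and *Hsp90b1* left out. Each gene was read from its brightest probe set, a group of short array probes for 1 transcript, and 40 of the 69 had several. By role they were 11 genes of the HSP70 and HSP110 families and their exchange factors, 1 HSP90 gene, 6 small heat shock proteins, 13 J proteins of classes A and B, 15 J proteins of class C, 9 genes of the TRiC chaperonin and 1 heat shock factor. The symbols also took in 5 genes whose proteins reside in the endoplasmic reticulum and 8 whose proteins reside in mitochondria, so the set was wider than cytosolic chaperones. *Dnajb12*, anchored in the endoplasmic reticulum membrane, was counted with the class B J proteins. *Hspb11*, whose product belongs to the transport machinery of cilia, was counted by its symbol with the small heat shock proteins. *Hsf1* and *Hsp90ab1* were not analysed here.

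Expression was measured in whole lung of 17 male mice, each on 1 array, given intravenous saline or lipopolysaccharide (LPS, endotoxin from *Escherichia coli* O111:B4) at 20 mg/kg. The wild-type mice were C57BL/6J, and the *NOS2*-/- mice, from the same supplier, lacked inducible nitric oxide synthase in every cell; no source used here gives their age. The wild-type groups were saline at 22 h (4 mice), LPS at 7 h (3 mice) and LPS at 22 h (3 mice), and the *NOS2*-/- groups were the same with 1, 3 and 3 mice. No saline mouse was studied at 7 h, so both LPS times were set against saline mice at 22 h, and all comparisons with saline in 1 genotype share those control mice.

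The values are log2 expression values, and a difference of 1 is a doubling. A gene is said to have risen, fallen or differed where its limma p-value, adjusted over 22626 probe sets by the Benjamini-Hochberg method, was under 0.05. Array medians lay between 8.46 and 8.55. Several arrays stood apart. Replicate 2 of the wild-type mice 22 h after LPS correlated with the other replicates of its group at only 0.949 to 0.955. Replicate 1 of the wild-type saline mice had high values of several heat shock genes, which are described below. The single *NOS2*-/- saline lung carried signal of other tissues: its summed skeletal muscle markers reached 13.80 against 9.86 to 10.9 in all other lungs, with squamous epithelial markers at 14.56 against 10.6 to 11.0, and cardiac markers at 14.55 against 12.5 to 13.4. Alveolar type 2 cell markers were strong in every group (summed level 16.1 to 16.6). They read 16.55 to 16.63 in wild-type saline mice and 16.10 to 16.28 in wild-type mice 22 h after LPS. In the same groups neutrophil markers read 12.33 to 12.79 and 15.75 to 15.89, and fibroblast markers 15.27 to 15.43 and 13.68 to 14.21. Monocyte and macrophage markers read 13.76 to 13.95 and 14.64 to 14.90. The part of these shifts in the differences from saline was not tested. The *Nos2* probe set did not separate the genotypes (8.99 to 9.25 in *NOS2*-/- mice and 8.19 to 8.80 in wild-type mice 22 h after LPS). No source used here says whether it reads the deleted part, so it checks no label.

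Chaperones bind unfolded stretches of other proteins and keep them from clumping until they fold or are destroyed. HSP70 proteins do so in cycles of ATP hydrolysis, which J proteins start and exchange factors such as the HSP110 family reset, while HSP90, the small heat shock proteins and the ring-shaped chaperonins (TRiC in the cytosol, Hspd1 with Hspe1 in mitochondria) take over particular clients. In heat and other protein-damaging stress, heat shock factor 1 switches on many of these genes through heat shock elements, and unfolded protein in the endoplasmic reticulum switches on another set through its own promoter elements.

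Promoter windows, 250 bases before to 50 after each annotated start, were available from RefSeq (build GRCm38.p6) for 57 of the 69 genes. The other 12 were not searched: *Hsp90aa1*, *Hspa8*, *Hspa9*, *Hspb2*, *Cct4*, *Dnajc2*, *Dnajc5*, *Dnajc5b*, *Dnajc11*, *Dnajc12*, *Dnajc18* and *Dnajc30*. A strict heat shock element, GAANNTTCNNGAA or its reverse complement TTCNNGAANNTTC, lay in the windows of *Dnajb6*, *Hspd1*, *Hspe1* and *Hsph1*, which is 7.02% of the 57 against 0.662% of 27025 genes with a window. The endoplasmic reticulum stress element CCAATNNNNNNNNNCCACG, on either strand, lay in that of *Dnajc3* alone (1.75% against 0.137%). Other forms of either element were not searched for, and a match is a run of letters, not a measured site. The promoters below are shown because these genes recur in the results; capitals mark the element, and each stretch ends before an annotated start. In *Dnajb6*, which is among the genes that differed by genotype (chr5:29735698-29735897, plus strand), the match lay 46 to 34 bases before 1 annotated start, and 127 to 115 bases before the other.
Dnajb6: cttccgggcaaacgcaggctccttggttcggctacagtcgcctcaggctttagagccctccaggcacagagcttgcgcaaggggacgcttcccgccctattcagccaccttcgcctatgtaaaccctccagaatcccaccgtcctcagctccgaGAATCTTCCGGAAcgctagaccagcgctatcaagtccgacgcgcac
*Hspd1* and *Hspe1*, the genes of the mitochondrial chaperonin and its lid, are transcribed away from each other, and the 200 bases before each of their starts overlapped by 185 bases; the stretch before *Hspe1* (chr1:55087948-55088147, plus strand) held 2 overlapping matches, so that 1 piece of DNA accounts for both genes.
Hspe1: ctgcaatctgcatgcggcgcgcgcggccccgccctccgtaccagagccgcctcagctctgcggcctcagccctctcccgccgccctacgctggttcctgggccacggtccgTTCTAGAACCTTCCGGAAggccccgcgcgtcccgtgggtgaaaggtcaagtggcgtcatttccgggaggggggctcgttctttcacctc
In *Dnajc3*, an inhibitor of the kinases that halt translation (chr14:118937732-118937931, plus strand), the match lay 105 to 87 bases before the start.
Dnajc3: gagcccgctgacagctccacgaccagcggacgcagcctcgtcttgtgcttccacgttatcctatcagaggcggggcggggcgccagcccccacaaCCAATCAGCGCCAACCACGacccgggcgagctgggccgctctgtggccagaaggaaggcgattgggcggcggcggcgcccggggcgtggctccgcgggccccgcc
In *Hsph1* the match, TTCTGGAAAGTTC (chr5:149636288-149636300, minus strand), lay after both annotated starts, by 16 to 28 and by 37 to 49 bases.

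In wild-type lungs 7 h after LPS, 15 of the 69 genes were higher and 8 lower than in saline mice (21.7% and 11.6%, against 14.6% and 20.6% of all genes). At 22 h, 8 were higher and 11 lower, against 13.1% and 22.6% of all genes. The median difference of the 69 was 0.05 at 7 h and -0.05 at 22 h, beside -0.07 and -0.02 over all genes, so the set as a whole hardly moved while single genes did. Without wild-type LPS 22 h replicate 2 the counts were 21 higher and 11 lower at 7 h (18.8% and 29.8% of all genes in that fit), and 15 higher and 11 lower at 22 h (19% and 24.3%). Counts without saline replicate 1 were 16 higher and 7 lower at 7 h (13.5% and 19.1% of all genes), and 8 higher and 10 lower at 22 h (11.9% and 20.6%).

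**Figure D1:**
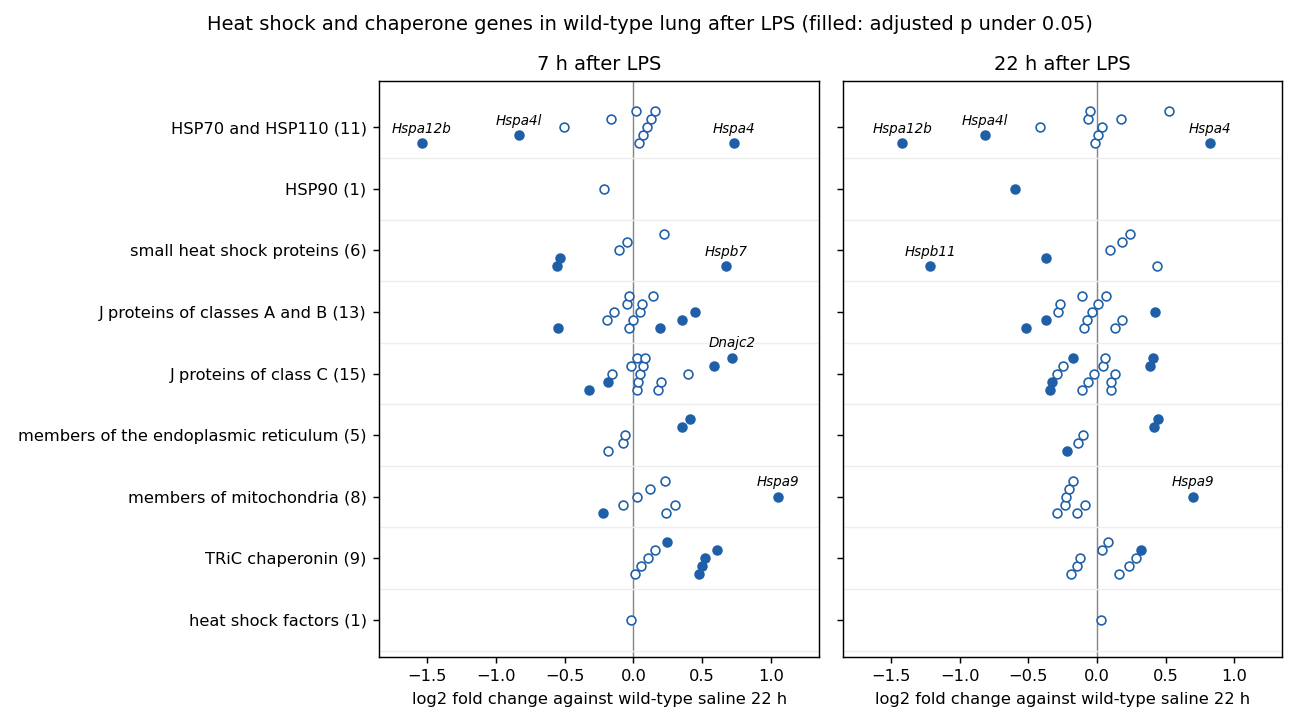
Difference in log2 expression between LPS and saline in wild-type lung at 7 h (left) and 22 h (right) for the 69 genes (x axis), 1 circle a gene, by role (y axis) with the number of genes in brackets; filled circles passed the test, and called genes at 0.65 or more in size are named. The circles of the TRiC chaperonin all lie to the right of 0 at 7 h, and *Hspa12b* is the leftmost circle in both panels.

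On their brightest probe sets 1 gene of 11 in the HSP70 and HSP110 families was higher and 2 were lower at each time. Over all genes 14.6% were higher and 20.6% lower at 7 h, and 13.1% and 22.6% at 22 h. The same shares stand beside the counts by role in wild-type mice below. The higher gene of the 11 was *Hspa4*, which rose on only the brightest of its 3 probe sets (below). The furthest fall of the whole set was that of *Hspa12b*, a distant HSP70 relative that is known from endothelium. Its values were 8.78, 8.92, 8.89 and 9.10 in the wild-type saline mice, 7.36, 7.30 and 7.49 at 7 h after LPS, and 7.26, 7.95 and 7.30 at 22 h. Every LPS mouse lay below every saline mouse, and 22 h replicate 2 stood nearest to saline. The fall was -1.54 ± 0.14 at 7 h (SE; 2.91-fold lower, limma adjusted p = 3.27e-07) and -1.42 ± 0.14 at 22 h (2.67-fold lower, adjusted p = 8.47e-07). In *NOS2*-/- mice *Hspa12b* was 8.71 in the saline mouse, 7.42, 7.52 and 7.71 at 7 h and 7.34, 7.29 and 7.31 at 22 h, a fall of -1.16 and -1.40. It moved with the endothelial markers, of which 5 of 7 fell and 1 rose in wild-type mice, at either time. Their summed level was 14.66 to 14.75 in wild-type saline mice, 13.93 to 14.03 at 7 h and 14.02 to 14.38 at 22 h, and their part in the fall was not tested. In whole lung, fewer cells of a type and less RNA per cell cannot be told apart.

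The HSP110 genes, which reset HSP70 by exchanging its nucleotide, diverged on their brightest probe sets. *Hspa4l* had values of 10.21, 9.53, 9.41 and 9.27 in wild-type saline mice, 8.80, 8.81 and 8.71 at 7 h and 8.73, 8.97 and 8.68 at 22 h. The groups did not overlap, and saline replicate 1 was the highest array. It fell by 0.83 ± 0.16 at 7 h (1.78-fold lower, limma adjusted p = 0.000943) and by 0.81 ± 0.16 at 22 h (adjusted p = 0.00113), and the second *Hspa4l* probe set fell too (-0.85 and -1.22). Without saline replicate 1 these differences were -0.63 and -0.61, still past the threshold. *Hspa4* gave 9.07, 9.42, 9.28 and 9.28 with saline, 9.93, 10.07 and 9.99 at 7 h, and 10.20, 9.74 and 10.32 at 22 h on its brightest probe set, a rise of 0.73 ± 0.12 (1.66-fold, adjusted p = 0.000174) and 0.82 ± 0.12 (1.77-fold, adjusted p = 5.74e-05). The direction for *Hspa4* depended on the probe set, since the other 2 stood at -0.47 (adjusted p = 0.000674) and -1.42 (adjusted p = 8.70e-06) at 22 h, and at -0.13 and -0.41 at 7 h, where neither passed. Averaged over its probe sets, *Hspa4* was at 0.06 at 7 h, which did not pass. At 22 h that average was -0.36, a fall that passed (limma adjusted p at most 0.00567).

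*Hspa8*, *Hspa1a*, *Hspa1b*, *Hsph1* and *Hsf2* did not pass at either time. *Hspa8*, the constitutive cytosolic HSP70, ranged from 12.70 to 13.05 in wild-type saline mice, 12.84 to 12.91 at 7 h and 12.75 to 12.94 at 22 h, and differed by 0.07 and 0.04. *Hspa1a*, the stress-inducible HSP70, ranged from 7.34 to 7.66, 7.56 to 7.82 and 6.95 to 7.91 in the same groups, with differences of 0.13 and 0.01. Its near-identical neighbour *Hspa1b* differed by 0.02 and -0.02, and array probes may not tell the pair apart. *Hsph1*, a further HSP110 gene, stood at -0.51 (adjusted p = 0.198) and -0.42 (adjusted p = 0.289), with values that turned on 1 saline array (below). *Hsf2*, the only heat shock factor measured, was dim (4.99 to 5.22 over all arrays) and stood at -0.01 and 0.03.

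Subunits of TRiC, the cytosolic chaperonin that folds actin and tubulin, were higher at 7 h: 5 of 9 rose, none fell, and all 9 lay above 0 (median 0.24). *Cct6a*, the zeta subunit, gave 11.97, 11.95, 11.95 and 11.84 in wild-type saline mice, 12.42, 12.41 and 12.46 at 7 h and 12.30, 12.18 and 12.27 at 22 h. No LPS mouse reached down to a saline mouse. It rose by 0.50 ± 0.06 at 7 h (1.42-fold, limma adjusted p = 1.54e-05) and 0.32 ± 0.06 at 22 h (adjusted p = 0.000938). *Cct2*, the beta subunit, had values of 11.17, 11.45, 11.26 and 11.17 with saline and 11.94, 11.81 and 11.86 at 7 h, a rise of 0.61 ± 0.14 (1.53-fold, adjusted p = 0.00255), which its other 2 probe sets shared in direction (0.55 and 0.53). At 22 h *Cct2* stood at 11.70, 11.04 and 11.74, where replicate 2 lay below all 4 saline mice, and the difference of 0.24 did not pass. *Cct3* rose by 0.52 ± 0.15 (adjusted p = 0.0148), *Cct8* by 0.48 ± 0.15 (adjusted p = 0.0218) and *Tcp1*, the alpha subunit, by 0.24 ± 0.07 (adjusted p = 0.00893) at 7 h. The second *Cct8* probe set, dim at 5.21 or less in wild-type saline mice, stood at -0.03. The 5 other *Cct3* probe sets stood between -0.02 and 0.84. At 22 h only *Cct6a* of the 9 passed. Without LPS 22 h replicate 2, 4 of 9 were higher at 22 h, *Cct2* by 0.46 and *Cct3* by 0.53, and 6 of 9 at 7 h.

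Of 5 genes of prefoldin, which hands nascent actin and tubulin to TRiC, 0 rose and 1 fell at 7 h, and again 0 and 1 at 22 h.

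**Figure D2:**
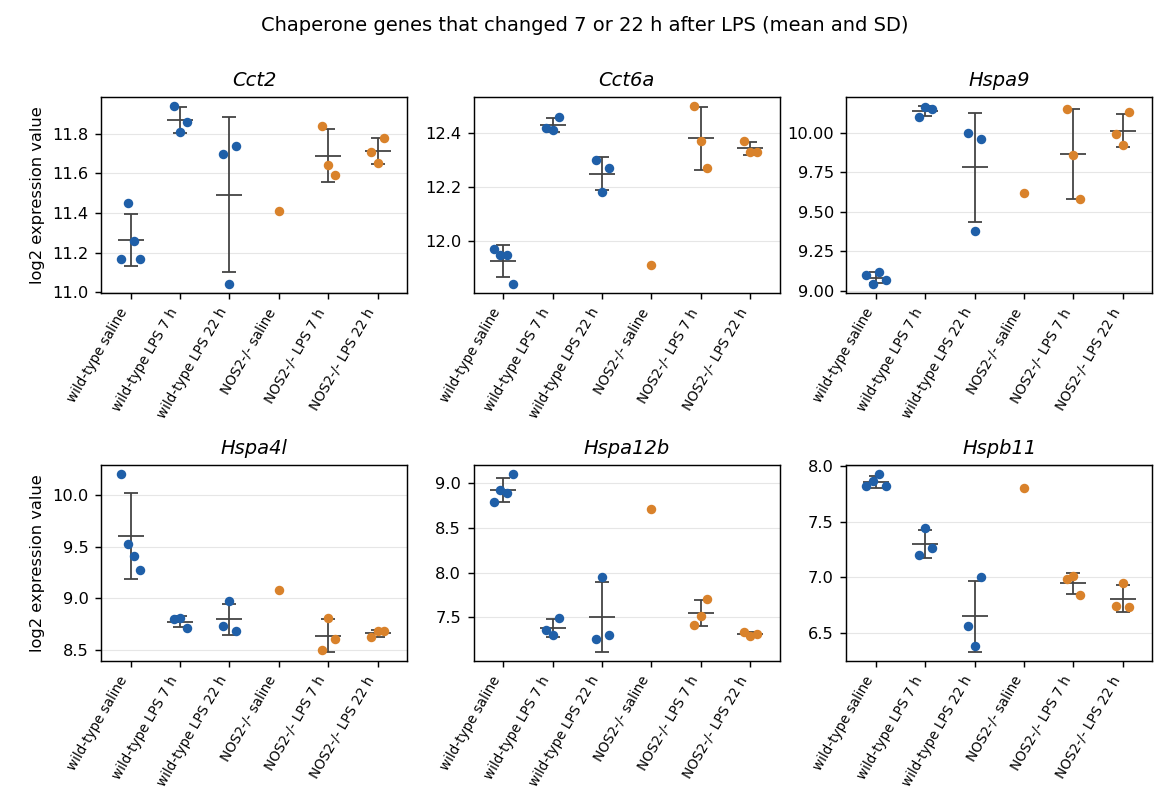
Log2 expression of 6 genes in each mouse (points), by group on the x axis, with the group mean and SD (bars; blue wild-type, orange *NOS2*-/-, whose saline group is 1 mouse without an SD). *Hspa12b* and *Hspb11* lie below all saline mice in every LPS mouse, and 22 h replicate 2 of the wild-type mice is the lowest LPS mouse for *Cct2* and *Hspa9*.

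*Hspa9*, the HSP70 of the mitochondrial matrix, had the largest rise of the set at 7 h. Its values were 9.10, 9.04, 9.12 and 9.07 in wild-type saline mice, 10.10, 10.16 and 10.15 at 7 h, and 10.00, 9.38 and 9.96 at 22 h. Group means were 9.08 ± 0.04 (SD, n = 4), 10.14 ± 0.03 (n = 3) and 9.78 ± 0.35 (n = 3), with no overlap between LPS and saline. The rise was 1.05 ± 0.14 (SE; 2.07-fold, limma adjusted p = 2.23e-05) at 7 h and 0.70 ± 0.14 (1.62-fold, adjusted p = 0.000971) at 22 h. A second *Hspa9* probe set rose as well (0.77 and 0.41), and the other 2 did not pass (0.27 and -0.06 at 7 h). The *NOS2*-/- saline mouse already stood at 9.62, and *Hspa9* did not pass against it at 7 h (0.24) or 22 h (0.39), although against the 4 wild-type saline mice the *NOS2*-/- mice at 22 h were higher by 0.93.

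Of the other mitochondrial members, *Hspd1*, *Hspe1* and *Dnaja3* fell between 7 h and 22 h after LPS. *Hspd1*, the chaperonin, had values of 11.54, 11.20, 11.11 and 10.98 with saline, 11.57, 11.55 and 11.41 at 7 h, and 11.24, 10.75 and 11.11 at 22 h. *Hspe1*, its lid, had values of 10.65, 10.29, 10.07 and 10.13 with saline, 10.54, 10.49 and 10.51 at 7 h, and 10.14, 9.79 and 10.05 at 22 h. For both, saline replicate 1 sat with or above the 7 h mice and the remaining saline mice below them. Neither passed against all 4 saline mice, but without saline replicate 1 *Hspd1* (0.41, limma adjusted p = 0.0182) and *Hspe1* (0.35, adjusted p = 0.0101) were higher at 7 h. Between 7 h and 22 h *Hspe1* fell by 0.52 ± 0.13 (adjusted p = 0.0144), *Hspd1* by 0.48 ± 0.14 (adjusted p = 0.0415) and *Dnaja3*, the J protein that serves Hspa9, by 0.46 ± 0.10 (adjusted p = 0.00573). The *Hspd1* call was lost in 10 of the 17 fits that each left out 1 mouse (adjusted p 0.0208 to 0.132), and without LPS 22 h replicate 2 it stood at -0.34 (adjusted p = 0.0902). *Hspe1* lost its call in 1 of the 17, without LPS 7 h replicate 1 (adjusted p = 0.0525). Of 10 partners and proteases of mitochondrial chaperones, 2 rose and 1 fell at 7 h, and 0 rose and 2 fell at 22 h.

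Small heat shock proteins hold unfolded proteins without ATP. Of the 6 genes listed under that name, 1 rose and 2 fell at 7 h, and 0 rose and 2 fell at 22 h. The 2 that fell were *Hspb11* and *Hspb2* at both times, and *Hspb11* was listed by its symbol only. *Hspb11*, whose product is a subunit of the transport machinery of cilia in spite of its name, had values of 7.82, 7.86, 7.93 and 7.82 with saline, 7.20, 7.44 and 7.26 at 7 h, and 6.56, 6.38 and 7.00 at 22 h. All LPS mice lay below all saline mice, and all 22 h mice below all 7 h mice. The fall was -0.56 ± 0.12 at 7 h (1.47-fold lower, limma adjusted p = 0.00144) and -1.21 ± 0.12 at 22 h (2.32-fold lower, adjusted p = 7.52e-07), with a further fall of 0.66 between the times (adjusted p = 0.00301). In *NOS2*-/- mice *Hspb11* fell by 0.85 at 7 h and 0.99 at 22 h. A second *Hspb11* probe set showed no such change (wild-type differences of -0.04 at 7 h and 0.00 at 22 h). That probe set was dim, at 5.15 or less in the wild-type saline mice, so a fall there could go unseen.

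*Hspb7*, a small heat shock protein of heart and muscle, was the one that rose at 7 h, from 8.66, 8.65, 9.01 and 8.78 to 9.55, 9.41 and 9.37 (0.67 ± 0.17, 1.59-fold, limma adjusted p = 0.00530). *Hspb2*, expressed in muscle, fell by 0.53 ± 0.14 (adjusted p = 0.00638). At 22 h *Hspb2* was lower by 0.37 (adjusted p = 0.0467) with overlapping groups, and that call was lost in 14 of the 17 fits with 1 mouse left out (adjusted p 9.20e-05 to 0.196, the lowest without LPS 22 h replicate 2). Of 7 cardiac markers 0 passed at 7 h (summed level 13.05 to 13.39 with saline and 13.06 to 13.43 at 7 h), and 3 of 5 smooth muscle markers fell (13.18 to 13.59 with saline, 12.86 to 13.03 at 7 h); their part in these differences was not tested. Both genes were at their highest in the *NOS2*-/- saline lung with the muscle signal, at 9.85 and 8.95.

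*Hsp90aa1*, the stress-responsive cytosolic HSP90, fell at 22 h. Its values were 12.40, 11.70, 11.63 and 11.54 in wild-type saline mice, 11.69, 11.61 and 11.53 at 7 h and 11.37, 10.91 and 11.40 at 22 h. All 22 h mice lay below all saline mice, while 2 of the 3 mice at 7 h lay among them. The fall at 22 h was 0.59 ± 0.17 (1.51-fold lower, limma adjusted p = 0.0114), and 0.40 without saline replicate 1, still past the threshold. With only these groups in the fit it did not pass (adjusted p = 0.105). Its other probe sets fell as well (-0.69 and -0.58). Of 25 co-chaperones that work with HSP70 and HSP90, 1 rose and 7 fell at 7 h, and 2 rose and 11 fell at 22 h (median -0.21, beside -0.02 over all genes). *Fkbp4*, a co-chaperone of steroid receptors, fell by 0.94 and 1.14, whereas *Fkbp5*, its relative and a known glucocorticoid target, rose by 2.24 at 7 h and 2.22 at 22 h.

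J proteins, which bring clients to HSP70 and start its ATP hydrolysis, were mixed in wild-type mice. Of the 13 of classes A and B, 3 rose and 1 fell at 7 h, and 1 rose and 2 fell at 22 h. *Dnaja2*, a major cytosolic class A protein, had values of 9.39, 9.57, 9.60 and 9.47 with saline, 9.91, 9.93 and 10.03 at 7 h and 9.74, 9.64 and 9.68 at 22 h, a rise of 0.45 ± 0.07 at 7 h (limma adjusted p = 9.56e-05). The second *Dnaja2* probe set stood at 0.07 at 7 h. The other rises at 7 h were those of *Dnajb5* (0.35, adjusted p = 0.0245) and *Dnajb6* (0.20, adjusted p = 0.0247, lost in 4 of the 17 fits with 1 mouse left out, adjusted p up to 0.105), and *Dnajb1* rose at 22 h (0.42 ± 0.08, 1.34-fold, adjusted p = 0.000761). *Dnaja4* fell at both times, by 0.55 ± 0.09 (adjusted p = 0.000147) and 0.51 (adjusted p = 0.000263). *Dnajb13*, an axonemal protein of motile cilia and sperm, fell by 0.37 at 22 h (adjusted p = 0.000970). Of 6 ciliated and club cell markers, 2 fell and 1 rose (summed level 16.03 to 16.14 with saline and 15.44 to 15.54 at 22 h). That list pools both cell types and does not measure ciliated cells alone, and its part was not tested.

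Class C J proteins are a varied group that share the J domain. At 7 h 2 of 15 rose and 2 fell. *Dnajc2*, which works on the ribosome, had values of 8.29, 8.45, 8.28 and 8.46 with saline and 9.03, 9.06 and 9.18 at 7 h, without overlap (0.72 ± 0.11, 1.65-fold, limma adjusted p = 7.95e-05), and was still higher at 22 h (0.38, adjusted p = 0.0121). *Dnajc21*, needed for ribosome assembly, stood at 0.59 ± 0.22 at 7 h (adjusted p = 0.0484), a call lost in 12 of the 17 fits with 1 mouse left out (adjusted p 3.33e-05 to 0.173). The falls at 7 h were small: *Dnajc9*, a histone chaperone, by 0.32 (adjusted p = 0.0379) and *Dnajc8*, found in splicing complexes, by 0.18 (adjusted p = 0.0398), with calls lost in 7 and 9 of those fits (adjusted p up to 0.152 and 0.13). *Dnajc5*, a protein of secretory vesicles, rose at 22 h (0.41, adjusted p = 0.000618), while *Dnajc7*, which binds both HSP70 and HSP90, fell (-0.34, adjusted p = 0.00293).

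Among the J proteins of the endoplasmic reticulum, *Dnajb11*, a partner of the HSP70 of that compartment, rose at both times: 10.84, 10.80, 10.85 and 10.82 with saline against 11.29, 11.14 and 11.11 at 7 h (0.35 ± 0.07, limma adjusted p = 0.00128) and 11.35, 11.15 and 11.31 at 22 h (0.44, adjusted p = 0.000167). *Dnajb9*, another such partner, had values of 10.93, 11.07, 10.91 and 10.80 with saline, 11.38, 11.36 and 11.29 at 7 h and 11.53, 10.91 and 11.58 at 22 h, with overlap at 22 h through replicate 2. It rose by 0.41 at both times (adjusted p = 0.0332 and 0.0333), calls that were lost in 6 and 5 of the 17 fits with 1 mouse left out (adjusted p up to 0.0957 and 0.135). Chaperones of this compartment outside the set included 3 of 12 that rose and 0 that fell at 7 h, and 4 and 1 at 22 h. *Hspa5*, its HSP70, rose by 0.78 and 0.74, and *Manf*, a secreted partner of Hspa5, by 0.96 and 1.17. *Dnajc3*, whose promoter with the stress element is printed above, fell by 0.22 at 22 h (adjusted p = 0.0388) on its brightest probe set, and the call did not hold without saline replicate 1 or without LPS 22 h replicate 2.

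From 7 h to 22 h after LPS in wild-type mice, 0 of the 69 genes rose and 11 fell, against 3.48% and 8.45% of all genes. With only these groups in the fit, none of the 11 passed. Beside *Hspb11*, *Hspe1*, *Hspd1* and *Dnaja3*, the genes that fell were *Dnajc13*, an endosomal J protein (-0.69, limma adjusted p = 0.0378, lost in 12 of the 17 fits with 1 mouse left out, adjusted p 0.00327 to 0.141), *Dnajb13* (-0.43), *Dnajc7* (-0.37), *Cct5* (-0.35), *Dnaja2* (-0.27), *Dnajb6* (-0.27) and *Cct4* (-0.23). Without LPS 22 h replicate 2, 2 were higher and 12 lower (8.04% and 8.52% of all genes in that fit).

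Saline replicate 1 of the wild-type mice had higher values of several heat shock genes than the other saline mice. Its value exceeded the mean of the other 3 saline mice by at least 0.5 in 4 of the 69 genes (5.80%), against 0.234% of all genes, and was 0.5 or more below it in 0. *Hsph1* led all 12393 genes: it read 11.17, against 9.74, 9.68 and 9.53 in the other saline mice, a difference of 1.52 (2.86-fold). *Hspb1*, the abundant small heat shock protein, read 14.28 against 13.34, 13.38 and 13.36 (0.92, rank 3 of all genes). *Hspa4l* (0.81, rank 5) and *Hsp90aa1* (0.78, rank 8) followed, then *Hspe1* (0.48), *Hspd1* (0.44), *Cct3* (0.34) and *Hspa8* (0.33). *Hspa1a* was at its lowest of the saline mice in this lung (7.34), while all 3 probe sets of *Hspa1b* were at their highest (by 0.28, 0.54 and 0.36 over the mean of the others). Interferon-related genes were among the leading genes as well (*Gbp6*, 1.27, rank 2; *Slfn4*, 0.83, rank 4). Outside the set, *Serpinh1*, the collagen chaperone, stood 0.63 higher and *Hspa5* 0.54 higher. *St13* (0.53), *Hsp90b1* (0.48), *Stip1* (0.47) and *Fkbp4* (0.43) were higher too. Others of the chaperone lists outside the set were lower, such as *Hscb* (-0.36), *Fkbp8* (-0.27) and *Lonp1* (-0.25). *Cryab* (0.00), *Bag3* (-0.10) and *Dedd2* (-0.18) did not stand above the other saline mice.

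**Figure D3:**
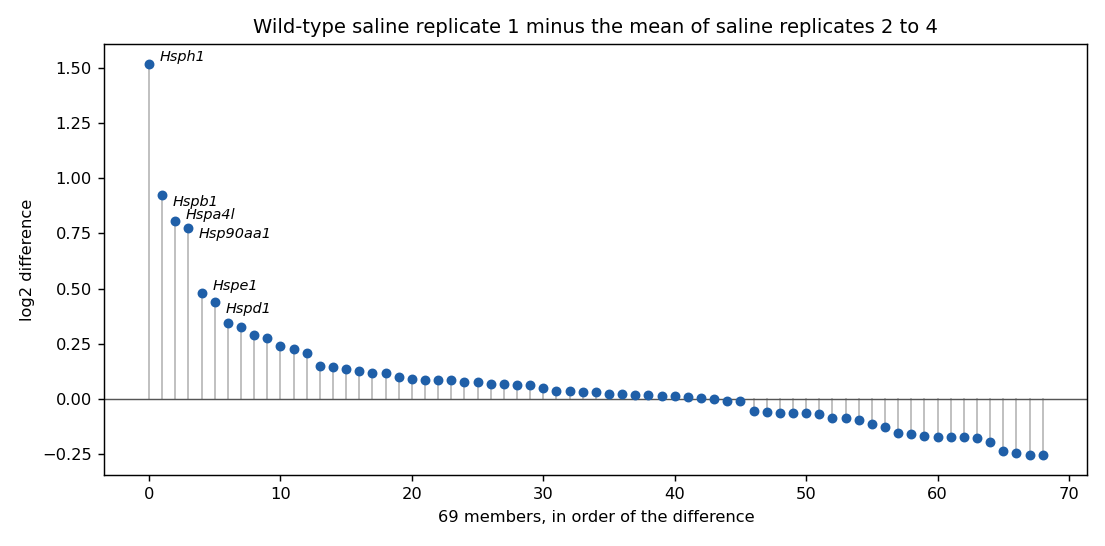
Log2 expression of wild-type saline replicate 1 minus the mean of saline replicates 2 to 4 (y axis) for the 69 genes in order of that difference (x axis), with the first 6 named. *Hsph1*, at 1.52, stands clear of the rest, and no gene lies 0.5 or more below 0.

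This array set the direction for some genes. *Hspb1* differed between wild-type LPS and saline mice by -0.05 at 7 h and 0.24 at 22 h (limma adjusted p = 0.881 and 0.347). Its values were 13.73, 13.47 and 13.44 at 7 h and 13.97, 13.63 and 13.90 at 22 h, above the 3 lower saline mice and below replicate 1. Without replicate 1 the difference was 0.18 at 7 h and 0.47 ± 0.10 at 22 h, which passed (adjusted p = 0.00193; adjusted p 0.00193 to 0.600 over the fits with 1 mouse left out). *Hsph1*, at 9.69, 9.47 and 9.42 at 7 h and 9.87, 9.47 and 9.50 at 22 h, then stood at -0.13 and -0.04.

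At 22 h after LPS, 9 of the 69 genes were higher and 4 lower in *NOS2*-/- than in wild-type mice, against 10.2% and 7.84% of all genes. The J proteins of classes A and B held 6 of the 9 higher genes and 1 of the 4 lower ones, 7 of 13 genes. Without wild-type LPS 22 h replicate 2, 9 were higher and 12 lower (11.9% and 16.6% of all genes in that fit), and among these J proteins 6 were higher and 2 lower. With only these groups fitted, 4 of the 13 genes passed: *Hspb8*, *Dnajb1*, *Dnajb2* and *Cct4*.

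*Dnajb4*, a cytosolic class B partner of HSP70, differed most. Its values were 11.02, 11.04 and 11.11 in *NOS2*-/- mice and 10.19, 9.37 and 10.31 in wild-type mice at 22 h. In all other groups it lay between 10.07 and 10.50, so only the *NOS2*-/- mice at 22 h stood above that range. The difference was 1.10 ± 0.18 (2.14-fold higher, limma adjusted p = 0.000776). It was 0.81 without wild-type replicate 2, still past the threshold (adjusted p = 1.95e-05), and 1.02 on a second *Dnajb4* probe set. With only these groups fitted it did not pass (adjusted p = 0.0683).

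*Hspb8*, a small heat shock protein that sends misfolded clients to autophagy together with Bag3, had values of 10.45, 10.39 and 10.42 in *NOS2*-/- mice and 9.74, 9.47 and 9.76 in wild-type mice at 22 h. Every other mouse read 9.92 or less. The difference was 0.76 ± 0.11 (1.69-fold, limma adjusted p = 0.000331) and passed on both other *Hspb8* probe sets (0.86 and 0.35). *Bag3* itself was higher by 0.68 (adjusted p = 0.000923).

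*Dnajb1*, the partner of stress-induced HSP70, had values of 10.42, 10.34 and 10.35 in *NOS2*-/- mice and 9.96, 9.73 and 9.92 in wild-type mice at 22 h, with both groups above all saline mice (9.32 to 9.57). It was higher in *NOS2*-/- mice by 0.50 ± 0.09 (1.41-fold, limma adjusted p = 0.00123) on its brightest probe set and by -0.16 on the second (adjusted p = 0.480), so the genotype difference rests on 1 of 2 probe sets. *Dnaja2* read 9.99, 10.03 and 10.04 in *NOS2*-/- mice against 9.74, 9.64 and 9.68 in wild-type mice (0.34 ± 0.07, adjusted p = 0.00573), and its second probe set 0.56. *Dnajb6*, which keeps aggregating proteins soluble and whose promoter with the heat shock element is printed above, read 11.17, 11.08 and 11.16 against 10.88, 10.72 and 10.91 (0.30 ± 0.07, adjusted p = 0.00635). Of its 3 other probe sets, 2 were higher (0.33 and 0.83) and 1 did not pass (-0.07). The other genes that were higher were *Dnajb12*, a J protein of the endoplasmic reticulum membrane (0.38, adjusted p = 0.0120), *Dnajc30* of mitochondria (0.42, adjusted p = 0.0153), *Hspbp1*, an exchange factor of HSP70 (0.35, adjusted p = 0.0335), and *Dnajb13* (0.27, adjusted p = 0.0275). Without wild-type LPS 22 h replicate 2, *Hspbp1* and *Dnajb13* no longer passed, and without *NOS2*-/- LPS 22 h replicate 2 *Dnajc30* did not (adjusted p = 0.0585). Of the pooled list of 6 ciliated and club cell markers, 2 were higher in *NOS2*-/- mice (summed level 15.69 to 15.77 against 15.44 to 15.54). Their part in the difference of *Dnajb13* was not tested.

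*Dnajb2*, a J protein that binds ubiquitin and steers clients to the proteasome, went the other way. Its values were 8.87, 8.97 and 8.99 in *NOS2*-/- mice and 10.18, 9.52 and 10.07 in wild-type mice at 22 h, with wild-type replicate 2 nearest to the *NOS2*-/- mice. The difference was -0.99 ± 0.15 (1.98-fold lower, limma adjusted p = 0.000473) on its only probe set. *Cct4*, the delta subunit of TRiC, read 10.77, 10.74 and 10.78 against 11.30, 11.16 and 11.18 (-0.45 ± 0.06, adjusted p = 0.000193), below every other mouse of the study. None of the 5 other *Cct4* probe sets passed (-0.20 to 0.06), and averaged over its probe sets the difference was -0.12. *Dnajc7* (-0.30, adjusted p = 0.0227) and *Dnajc24* (-0.39, adjusted p = 0.0450) were lower as well, with calls lost in 4 and 14 of the 17 fits with 1 mouse left out (adjusted p up to 0.0854 and 0.145). The *Dnajc24* call did not hold without wild-type LPS 22 h replicate 2.

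**Figure D4:**
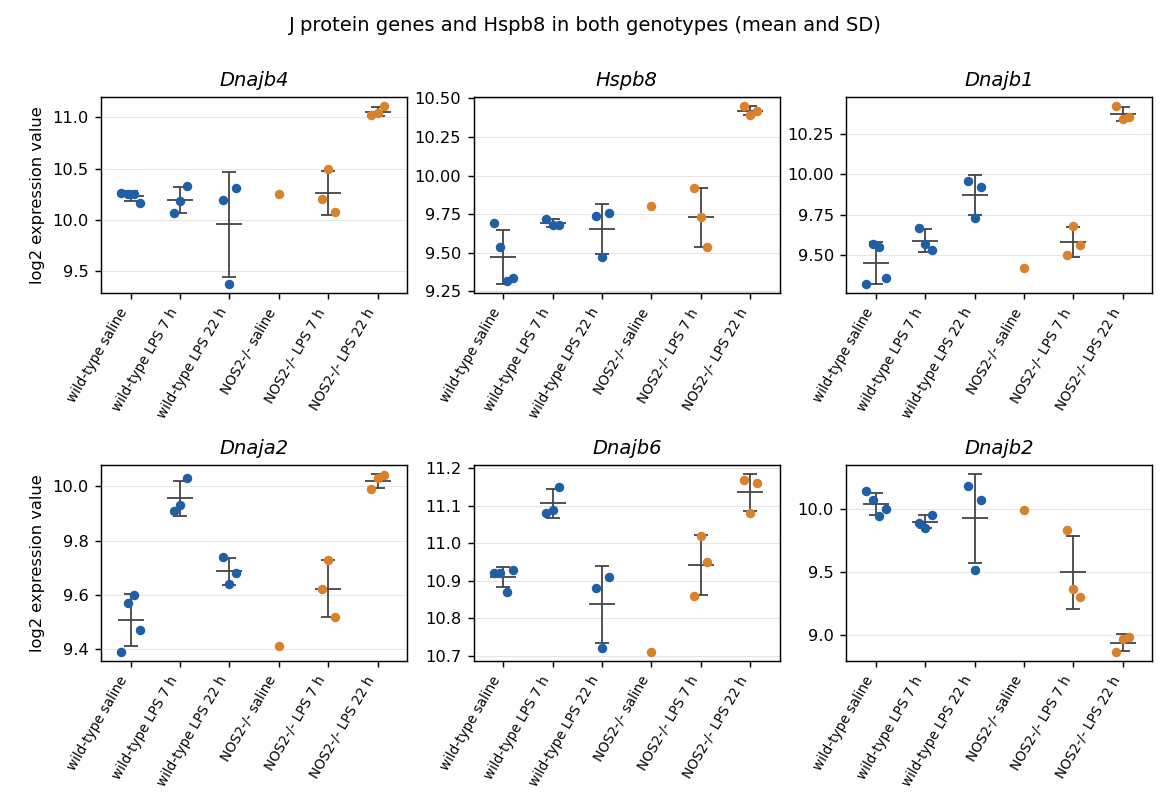
Log2 expression of *Hspb8* and 5 J protein genes in each mouse (points), by group on the x axis, with the group mean and SD (bars; blue wild-type, orange *NOS2*-/-, whose saline group is 1 mouse without an SD). *NOS2*-/- mice 22 h after LPS are the highest points of *Dnajb4*, *Hspb8* and *Dnajb1* and the lowest of *Dnajb2*.

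Muscle markers differed between the genotypes at the same time. At 22 h after LPS 4 of 5 smooth muscle markers were higher in *NOS2*-/- mice (summed level 12.76 to 12.82 against 12.13 to 12.24) and 4 of 7 cardiac markers (13.02 to 13.11 against 12.48 to 12.73). In wild-type saline mice these levels were 13.18 to 13.59 and 13.05 to 13.39. Their part in the differences was not tested.

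The course from 7 h to 22 h differed between genotypes for 5 of the 69 genes, all toward a larger rise in *NOS2*-/- mice (against 2.71% of all genes in that direction and 0.702% in the other). In *NOS2*-/- mice 4 genes rose and 5 fell between the times, against 4.55% and 3.87% of all genes. *Dnaja2* fell in wild-type mice (-0.27) and rose in *NOS2*-/- mice (0.40), a difference of 0.67 ± 0.10 (limma adjusted p = 0.00300) that passed in all 17 fits with 1 mouse left out and stood at 0.43 on the second probe set (adjusted p = 0.0819). *Dnajb6* differed by 0.47 ± 0.09 (adjusted p = 0.0171), lost without wild-type LPS 7 h replicate 3 or *NOS2*-/- LPS 22 h replicate 1 (adjusted p up to 0.0561), and its other probe sets gave 1.07, 0.21 and -0.12.

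The remaining 3 rested on fewer fits. *Dnajb4* rose by 0.80 ± 0.18 in *NOS2*-/- mice, from 10.20, 10.50 and 10.08 at 7 h, and stood at -0.23 in wild-type mice. The rise lost its call without replicate 3 of the *NOS2*-/- mice at 7 h (limma adjusted p = 0.0731) or at 22 h (adjusted p = 0.0554). The difference of 1.03 ± 0.25 (limma adjusted p = 0.0414) was lost in 12 of the 17 fits with 1 mouse left out (adjusted p 0.00319 to 0.114), was 0.74 and passed without wild-type LPS 22 h replicate 2, and passed on the second *Dnajb4* probe set (1.09, adjusted p = 0.0200). *Hspb8* rose by 0.69 ± 0.11 in *NOS2*-/- mice and stood at -0.04 in wild-type mice, a difference of 0.73 ± 0.16 (adjusted p = 0.0225) lost in 7 of the 17 fits (adjusted p 0.0120 to 0.0653). *Dnajb1* rose by 0.79 ± 0.09 in *NOS2*-/- mice and stood at 0.28 in wild-type mice (adjusted p = 0.0532). That difference of 0.51 ± 0.12 (adjusted p = 0.0382) was lost in 8 of the 17 fits (adjusted p 0.0248 to 0.103) and was 0.09 on the second *Dnajb1* probe set. In all of these fits the genes kept their direction.

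**Figure D5:**
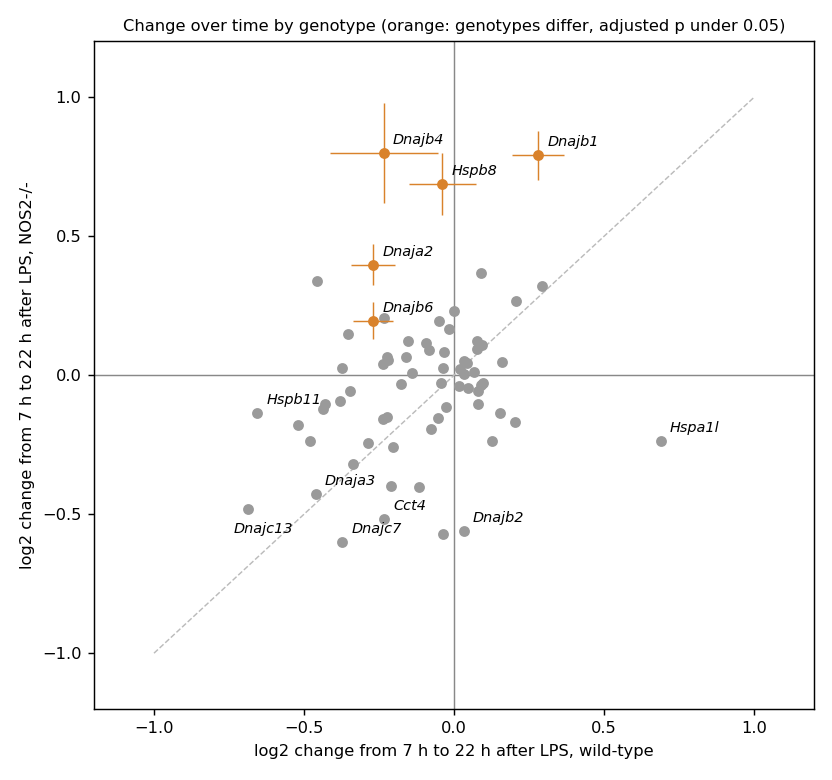
Change in log2 expression from 7 h to 22 h after LPS in wild-type mice (x axis) and *NOS2*-/- mice (y axis), 1 point a gene for the 69 genes; orange points with SE bars are the 5 genes whose change differed between genotypes, and the dashed line marks equal change. The 5 lie above the line, and *Dnaja2*, *Dnajb6*, *Dnajb4* and *Hspb8* lie where the change was below 0 in wild-type and above 0 in *NOS2*-/- mice.

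At 7 h after LPS, 0 genes were higher and 3 lower in *NOS2*-/- mice, against 0.670% and 1.52% of all genes. *Dnajb9* read 10.95, 10.46 and 10.69 against 11.38, 11.36 and 11.29 in wild-type mice (-0.64 ± 0.15, limma adjusted p = 0.0430), *Dnajc3* was lower by 0.36 (adjusted p = 0.0418) and *Dnaja2* by 0.33 (adjusted p = 0.0396). These calls were lost in 11, 10 and 9 of the 17 fits with 1 mouse left out (adjusted p up to 0.185, 0.202 and 0.191). Without wild-type LPS 22 h replicate 2, which is in neither group but enters the shared estimate of spread, 3 genes were higher and 19 lower, against 14.7% and 14% of all genes in that fit. Both *Dnajb9* and *Dnajc3* belong to the endoplasmic reticulum. Of 12 chaperones of that compartment outside the set, 0 were higher and 4 lower at 7 h, and 0 and 6 at 22 h, among them *Hsp90b1*, its HSP90 (-0.81 and -0.94), and at 22 h *Manf* (-0.58). Without wild-type LPS 22 h replicate 2, *Dnajb9* (-0.63), *Dnajc10* (-0.37), *Dnajc3* (-0.28) and *Dnajb11* (-0.27) were lower in *NOS2*-/- mice at 22 h as well.

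Against their own single saline mouse, 4 of the 69 genes were higher and 7 lower in *NOS2*-/- mice at 7 h (9.39% and 15.6% of all genes), and 10 higher and 13 lower at 22 h (11.7% and 18.3%). That mouse is assumed to vary as the other groups do, and it carried the muscle and squamous signal given above. At 7 h the genes that rose were *Dnajc2* (0.53, lost without replicate 1 or 2 of that group, limma adjusted p up to 0.0723), *Cct6a* (0.47), *Cct6b* (0.44) and *Dnajb12* (0.39, adjusted p = 0.0472, lost in 13 of 16 fits with 1 mouse left out, adjusted p up to 0.101), and the furthest fall after *Hspa12b* was that of *Hspb11* (-0.85). At 22 h the largest rise was that of *Hspb1*, with 14.12, 14.16 and 14.07 against 13.10 (1.02 ± 0.28, 2.02-fold, limma adjusted p = 0.0115). *Dnajb1* (0.95 ± 0.12, 1.93-fold, adjusted p = 3.35e-05), *Hspa4* (0.84), *Dnajb4* (0.81), *Hspb8* (0.62) and *Dnaja2* (0.61) followed. Averaged over its probe sets *Hspa4* stood at -0.56 instead, a fall that passed. *Hspa12b* fell furthest (-1.40), then *Dnajb2* (-1.05 ± 0.21, adjusted p = 0.00159), *Hspb11* (-0.99) and *Dnajc7* (-0.80). Set against the 4 wild-type saline mice instead, 26 genes differed at 7 h and 37 at 22 h (39.4% and 43.2% of all genes), including *Hspb1* (0.53), *Dnajb1* (0.92), *Dnajb4* (0.83), *Hspb8* (0.94) and *Dnajb2* (-1.10).

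The response to LPS at 22 h, each genotype against its own saline, differed for 3 genes (1 higher and 2 lower in *NOS2*-/- mice, against 2.76% and 2.68% of all genes). These were *Dnajb6* (0.51 ± 0.11, limma adjusted p = 0.0178), *Cct4* (-0.45 ± 0.10, adjusted p = 0.0223) and *Dnajb2* (-0.94 ± 0.26, adjusted p = 0.0496). *Dnajb2* lost its call in 13 of the 16 fits that left out 1 mouse and could be made (adjusted p 0.000513 to 0.106), and *Cct4* in 1 of 16, without *NOS2*-/- LPS 22 h replicate 2 (adjusted p = 0.0578). Without wild-type LPS 22 h replicate 2 the counts were 5 higher and 9 lower, against 6.27% and 9.97% of all genes in that fit. With only the groups compared in the fit, none of the 3 passed (adjusted p 0.0772 for *Dnajb6*, 0.0928 for *Cct4* and 0.102 for *Dnajb2*).

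Other genes known to be driven by heat shock factor 1 moved in both directions, though their summed level was lower after LPS. It was 13.55 to 13.89 in wild-type saline mice, 13.06 to 13.19 at 7 h and 12.73 to 13.09 at 22 h. In *NOS2*-/- mice it was 13.74 with saline, 12.95 to 13.025 at 7 h and 13.13 to 13.18 at 22 h. Of 8 measured, 1 rose and 3 fell at 7 h in wild-type mice, against 14.6% and 20.6% of all genes. At 22 h 2 rose and 5 fell, against 13.1% and 22.6%. In *NOS2*-/- mice at 22 h 3 were higher and 1 lower than in wild-type mice, against 10.2% and 7.84%. *Serpinh1* fell by 1.17 and 1.39 in wild-type mice. The summed level adds unlogged signal, so bright genes weigh more in it. *Serpinh1* read 11.57 to 11.68 and *Cryab* 11.42 to 11.50 in wild-type saline replicates 2 to 4. Summed fibroblast markers were 15.27 to 15.43 in wild-type saline mice, 13.97 to 14.34 at 7 h and 13.68 to 14.21 at 22 h. Their part in the fall of *Serpinh1* was not tested. *Cryab*, a small heat shock protein of muscle and lens, fell by 0.94 and 1.43 and was higher in *NOS2*-/- mice at 22 h by 0.61 (limma adjusted p = 4.00e-05). *Dedd2* rose by 0.42 and 0.81, and was higher in *NOS2*-/- mice at 22 h by 0.71.

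Of the 69 genes, 49 passed in at least 1 of the 8 comparisons of 2 groups and 20 in none, beside 55% of all genes that passed in at least 1. At least a 2-fold difference was found for 6 that passed (12.8% of all genes): *Hspa9*, *Hspa12b*, *Hspb1*, *Hspb11*, *Dnajb2* and *Dnajb4*. The 20 that passed in none were *Hspa1a*, *Hspa1b*, *Hspa1l*, *Hspa2*, *Hspa8*, *Hspa14*, *Hsph1*, *Hspb3*, *Hsf2*, *Dnaja1*, *Dnajb3*, *Dnajb7*, *Dnajb8*, *Dnajc1*, *Dnajc5b*, *Dnajc12*, *Dnajc14*, *Dnajc17*, *Dnajc18* and *Dnajc27*. A p above the threshold does not show that these were equal between groups.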

How the data were processed

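RNA from 17 mouse lungs was hybridized to Affymetrix MOE430A arrays, 1 per mouse. The deposited values are log2 expression values: the authors corrected background, normalized and summarized probes with the R package affy, and no source used here gives its version or options. All columns belonged to a sample of the series. Of 22690 probe sets, 64 controls were left out; 20380 of the rest named 1 gene, 691 several and 1555 none in the array annotation. No filter on low values was applied, so all 69 genes were tested. Groups came from the sample labels, and nothing says that mice were pooled; the number of arrays limits the precision.

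limma 3.58.1 in R 4.3.3 was fitted to all 17 arrays with 1 mean per group (11 residual and 3.75 prior degrees of freedom), and p-values were adjusted over 22626 probe sets. A gene was represented by its probe set with the highest mean. The fit was tested on simulated data. Replicate numbers were checked for pairing: of 30 pairs of arrays with the same number, 4 had correlated deviations above 0.1 (-0.385 to 0.362), so no block was used. The 69 genes, their role lists, the lists of other chaperones and the cell type markers were chosen with earlier results of these data known. Genes named with full values were, per comparison, the first 6 rises and first 6 falls among genes that passed, *Hsf2*, and the brightest gene of each role; of other genes, *Hspa5*, *Hsp90b1* and changed genes at 1 or more in size, with *Bag3*, *Manf*, *Dedd2*, *Gbp6*, *Slfn4* and others added after their values were seen. Alternatives were quantile normalization, median centring, a filter at the 40th percentile of mean level, trended robust empirical Bayes, array weights, only the groups compared, a replicate block, the mean over probe sets, wild-type saline mice as controls of *NOS2*-/- mice, and each array left out in turn. Leaving out both arrays that stood apart was added after seeing the data. Figures were drawn with matplotlib 3.10.9 in Python 3.11.15.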

Additional observations from a re-analysis of the deposited data

Results flagged for a closer look

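In the 4 wild-type saline mice, 5 of the 69 genes had 1 mouse far from the other 3, by the gap to its neighbour divided by the whole range of the group (Dixon's test). Chance alone marks about 1 in 20 groups. Replicate 1 was the high mouse for *Hspb1* (0.951), *Hsph1* (0.877) and *Hspa8* (0.853). Replicate 4 was low for *Dnajb4* (0.927) and replicate 2 for *Cct4* (0.902), both within a narrow range of values.

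Between the genotypes, the change from 7 h to 22 h after LPS differed by limma's interaction term for *Dnajb4* (1.03), *Hspb8* (0.725), *Dnaja2* (0.667), *Dnajb1* (0.510) and *Dnajb6* (0.465), each a larger rise in *NOS2*-/- mice. The response to LPS at 22 h differed for *Dnajb6* (0.506), *Cct4* (-0.45) and *Dnajb2* (-0.94), and these 3 rest on the single *NOS2*-/- saline mouse. Adjusted p-values and the fits that lost them stand with these genes above.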

How the results depend on the processing

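Of 2532 values of single genes under the alternatives, 2241 kept direction and side of the threshold, 269 lost their call, 8 gained one and 14 changed sign. Counts of the 69 genes that passed moved by more than 1.5 times as follows. With array weights, whose estimation stopped before full convergence, they were 31 for *NOS2*-/- mice at 7 h against saline (11 in the main design), 43 at 22 h (23), 26 for *NOS2*-/- mice from 7 h to 22 h (9), 33 and 20 for the genotypes at 7 h (3) and 22 h (13), 11 for the difference in change over time (5) and 15 for the difference in response (3). With only the groups compared they were 12 for wild-type mice at 22 h against saline (19), 0 from 7 h to 22 h (11), 44 for *NOS2*-/- mice at 22 h, 18 from 7 h to 22 h, 20 and 4 for the genotypes at 7 h and 22 h, 3 for the change over time and 0 for the response. Without both arrays that stood apart they were 24 and 38 for *NOS2*-/- mice at 7 h and 22 h, 18 and 23 from 7 h to 22 h in wild-type and *NOS2*-/- mice, 25 and 25 for the genotypes at 7 h and 22 h, 8 for the change over time and 13 for the response. Against the wild-type saline mice, *NOS2*-/- mice gave 26 at 7 h and 37 at 22 h. The response count was 6 with median centring, 5 with the filter on dim probe sets and 7 after quantile normalization, and the genotype count at 7 h was 1 for means over probe sets.

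Leaving out 1 array at a time gave 15 to 32 genes for wild-type mice at 7 h and 16 to 26 at 22 h, 8 to 22 and 17 to 36 for *NOS2*-/- mice, 4 to 14 and 6 to 19 from 7 h to 22 h, 0 to 22 and 8 to 21 for the genotypes at 7 h and 22 h, 1 to 8 for the change over time and 1 to 14 for the response. With a replicate block the genotypes at 7 h gave 0, the change over time 3 and the response 0, while the other 7 counts stayed within 1.5 times. Same-numbered arrays correlated best in 14 of 60 combinations, so no pairing by number was seen. With so few mice per group this check cannot exclude one.

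Signs changed for *Hspa4* averaged over probe sets (-0.36 in wild-type and -0.56 in *NOS2*-/- mice at 22 h). Both of these falls passed. Otherwise signs changed for differences near 0. At 7 h these were *Hspa8* after quantile normalization (-0.063), *Hspb1* without saline replicate 1 (0.18), without both arrays (0.18) and without LPS 7 h replicate 3 (0.0058; -0.14 to 0.18 with 1 array left out), and *Hsf2* after quantile normalization (0.0018) or median centring (0.00041). At 22 h they were *Hspa8* without saline replicate 3 (-0.00070) or LPS replicate 1 (-0.0095; up to 0.117 with 1 array left out), *Hspd1* without both arrays (0.072), and *Hsf2* with array weights (-0.021), without LPS replicate 2 (-0.020; up to 0.062 with 1 array left out) or without both arrays (-0.0076). The cause of these shifts was not tested. With 3 or 4 mice per group and 1 *NOS2*-/- saline mouse, small differences may go unseen.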
